A study of Mus musculus with 16 samples.

Results

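ATP-binding cassette (ABC) transporters were taken as all genes of the count tables whose symbol is Abc, a subfamily letter from a to g, a number and at most one further letter. The rule found 50 symbols. *Abca12* and *Abca15* had no read in any of the 16 libraries, which left 48 genes among 24984. By subfamily there were 14 genes of A, 10 of B, 10 of C, 4 of D, 1 of E, 3 of F and 6 of G. The ABC genes *Tap1*, *Tap2* and *Cftr*, whose symbols do not follow the rule, are given separately.

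The samples were kidney and liver RNA of aged female wild-type C57BL/6 mice that had received, by tail vein, the adeno-associated virus vector AAV8 with a short hairpin against *Fos* (shFos) or with a non-targeting hairpin (NT). Each tissue and treatment had 4 libraries. Per the study's methods the mice were 24 months old at injection and tissue was taken 3 months later, while the labels give an age of 24 months. All mice of these groups, NT included, carried AAV8, and the sources used here do not name the promoter of the hairpin or the cells it reached. The labels number the libraries of each group from 1 to 4 without saying that each came from another animal, so p-values measure the spread between these libraries.

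The kidney libraries held 14194543 to 15534665 reads assigned to genes, and the liver libraries 16652150 to 18300277. The tissue labels held against marker genes. The 6 hepatocyte markers summed to 53800 to 257000 CPM (each count relative to the library total, with TMM scaling over all 16 libraries) in liver and to 526 to 1160 CPM in kidney. The 6 proximal tubule markers summed to 3750 to 25200 CPM in kidney and to 1.55 to 7.27 CPM in liver. The library of NT replicate 4 stood apart in both tissues. In liver its hepatocyte sum was 53800 CPM against 165000 to 257000 in the other NT livers, and in kidney its proximal tubule sum was 3750 CPM against 9710 to 11000. It was the lowest or the highest of 8 libraries for 52.5% of the members tested in liver (52.6% of all genes) and for 56.4% in kidney (51.3%). *Fos* itself ranged from 2.99 to 4.73 CPM in NT kidneys and from 1.61 to 2.95 in shFos kidneys, without overlap. In NT livers it ranged from 1.57 to 5.20 CPM and in shFos livers from 1.97 to 3.87, so the liver groups overlapped.

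ABC proteins bind and split ATP with a pair of conserved domains. Members of A, B, C, D and G use that energy to carry lipids, bile salts, conjugates, drugs or metals across membranes, either as full transporters or as half-transporters that pair up. E and F proteins have no membrane part and act in translation. In liver, exporters of the canalicular membrane such as the bile salt pump, the phosphatidylcholine floppase and the sterol pair ABCG5 and ABCG8 form bile. In the kidney tubule, apical and basolateral exporters move urate, drugs and organic anions.

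The start regions of 5 genes that carry the tissue pattern or the kidney values below are shown first. A RefSeq window from 250 bases before to 50 bases after a gene start (build GRCm38.p6) was available for 36 of the 48 members, 43 windows in all. Motifs were searched in the 250 bases before the start, exons included, and counts of windows with a motif refer to these bases. Of them only those outside exons of GENCODE M21 are printed, 5′ to 3′ on the strand of the gene. Capitals mark matches, on either strand, to an AP-1 site (TGANTCA), a cAMP response element (TGACGTCA), the inverted repeat of nuclear receptor half-sites with 1 base between them (IR-1), a single half-site (AGGTCA), a D-box (TTANGTAA), an E-box (CACGTG), a GC box (GGGCGG) or a TATA box (TATAAA).
Abcb11, chr2:69342617-69342866, minus strand: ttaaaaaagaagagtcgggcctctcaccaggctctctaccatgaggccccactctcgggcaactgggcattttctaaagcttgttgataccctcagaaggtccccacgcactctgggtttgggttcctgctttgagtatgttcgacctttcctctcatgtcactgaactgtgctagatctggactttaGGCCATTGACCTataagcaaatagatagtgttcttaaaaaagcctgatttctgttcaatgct
Abcb4, chr5:8893471-8893716, plus strand: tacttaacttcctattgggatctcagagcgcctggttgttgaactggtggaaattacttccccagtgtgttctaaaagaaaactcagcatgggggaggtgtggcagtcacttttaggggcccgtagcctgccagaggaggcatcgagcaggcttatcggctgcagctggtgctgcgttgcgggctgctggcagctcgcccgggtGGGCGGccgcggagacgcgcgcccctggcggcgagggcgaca
Abcg5 with Abcg8, chr17:84683012-84683120, minus strand: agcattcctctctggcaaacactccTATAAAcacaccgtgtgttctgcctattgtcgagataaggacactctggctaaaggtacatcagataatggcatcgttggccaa
Abca13, chr11:9191692-9191941, plus strand: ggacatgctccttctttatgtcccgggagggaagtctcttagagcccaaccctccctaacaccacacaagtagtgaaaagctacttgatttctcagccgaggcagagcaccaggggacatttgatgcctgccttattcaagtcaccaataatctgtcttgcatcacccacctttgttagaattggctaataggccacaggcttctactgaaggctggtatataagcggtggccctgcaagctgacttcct
Abcg2, chr6:58640296-58640545, plus strand: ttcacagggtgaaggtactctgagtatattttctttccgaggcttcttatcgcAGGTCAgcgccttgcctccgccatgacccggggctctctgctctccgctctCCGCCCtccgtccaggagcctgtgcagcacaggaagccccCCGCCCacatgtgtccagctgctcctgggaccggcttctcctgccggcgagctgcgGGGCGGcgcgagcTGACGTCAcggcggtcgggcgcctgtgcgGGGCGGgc

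The *Abcb11* stretch holds the inverted repeat, whose first base lies 62 bases before the start and which overlaps a half-site. *Abcb11* is the bile salt exporter that leads the liver levels below. That repeat was present in 0.575% of 32851 windows of all genes and, among the members, also in *Abcc12*. The 109 bases between *Abcg5* and 1 of the listed starts of *Abcg8*, which RefSeq places head to head, are shared by both genes. They hold 1 TATA box, a motif found in 12.4% of all windows. Another listed start of *Abcg8* lies within the span of *Abcg5*. The printed *Abcg2* stretch precedes one of several listed starts and lies within the span of the gene. It is shown for the kidney values of *Abcg2*. It holds a cAMP response element 37 bases before that start, a motif found in 1.55% of all windows and, among the members, also in *Abce1*, together with 4 GC boxes. The *Abcb4* stretch holds 1 GC box and that of *Abca13* none of these motifs. The letters of the AP-1 site, the motif of the factor that contains FOS, occurred in 0 of the 43 member windows and in 6.75% of all windows. The D-box occurred in 0 of 43 and in 2.06%, and the E-box in 4 of 43 (*Abca1*, *Abca8a*, *Abcc4*, *Abcf1*) and in 6.02%. GC boxes were in 20 of 43 windows and in 32.7% of all, and half-sites in 7 of 43 and in 14% of all. A match is a stretch of letters only, and a missing match says only that the letters are not in the 250 bases searched.

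The levels of the members spanned a wide range in both tissues. In NT kidneys 36 of 48 members had a mean of at least 1 CPM and 6 a mean of at least 100. In NT livers the numbers were 40 and 14. Levels are compared between genes per kilobase of merged exon. The 3 most abundant members made up 28.9% of the summed level per kilobase of all members in NT kidneys and 35.7% in NT livers.

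In NT kidneys the most abundant was *Abcd3* (35.2 ± 4.70 CPM per kb, SD, n = 4), a peroxisomal half-transporter of fatty acids. Per kilobase of its longest transcript it stood at 66.4 in kidney and 127 in liver, where *Abcb11* then stood at 135. In kidney it was followed by *Abcg2* (22.1 ± 3.31), an apical efflux pump for urate and drugs, and by *Abcc3* (19.0 ± 2.81), a basolateral exporter of conjugates. The leading members of the other subfamilies there were *Abcf2* (16.1 ± 1.78), *Abca3* (15.7 ± 2.01), *Abce1* (10.9 ± 1.26), and, in B, *Abcb8* (8.87 ± 0.286). The neighbours in that order from *Abcg2* down, through *Abcc3*, *Abcc2* (16.6 ± 5.87), *Abcf2* and *Abcf1* (15.9 ± 0.908) to *Abca3*, lay within their spread of each other. Per kilobase of the longest transcript, *Abcf1* (22.2) led F before *Abcf2* (16.1), and *Abca3* (22.8) stood above *Abcc3* (21.6).

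In NT livers *Abcb11*, the bile salt export pump, led with 132 ± 53.5 CPM per kb (SD, n = 4). *Abcd3* followed with 67.4 ± 19.6 and *Abcc2*, the canalicular exporter of bilirubin conjugates, with 47.8 ± 2.72. *Abcg5* stood at 36.0 ± 5.92, *Abca6* led A with 27.9 ± 6.97, *Abcf1* led F with 20.4 ± 2.16, and *Abce1* stood at 18.9 ± 3.52. *Abcg5*, *Abcc6* (34.8 ± 10.9) and *Abcc3* (32.3 ± 11.2) did not differ beyond their spread. Per kilobase of the longest transcript, *Abcb4* (59.2) stood above *Abcc2* (50.8) in NT livers, next after *Abcb11* and *Abcd3*.

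As shares of the summed level, which do not depend on the scaling between libraries, subfamily B took 12.9% ± 0.257 in NT kidneys and 28.8% ± 5.99 in NT livers (SD, n = 4). In B, *Abcb11* alone took 18.8% ± 6.09 in NT livers and 0.0205% ± 0.0178 in NT kidneys. Subfamily F took 16% ± 0.248 and 8.64% ± 1.83, and E took 4.14% ± 0.423 and 2.81% ± 0.763. The ranges of B, E and F did not overlap between tissues. In CPM per kb, F summed to 42.4 ± 3.06 in NT kidneys and 58.3 ± 7.14 in NT livers. Its lower liver share stands beside a larger sum over all members, 264 ± 15.8 in NT kidneys and 686 ± 75.9 in NT livers. Unlike the shares, these sums depend on the TMM scaling between tissues. With library size alone the differences of *Abcf1*, *Abcf2* and *Abcf3* changed sign. D (16.1% ± 1.60 and 14.7% ± 3.55) and G (9.40% ± 1.44 and 11.1% ± 1.78) overlapped.

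**Figure D1:**
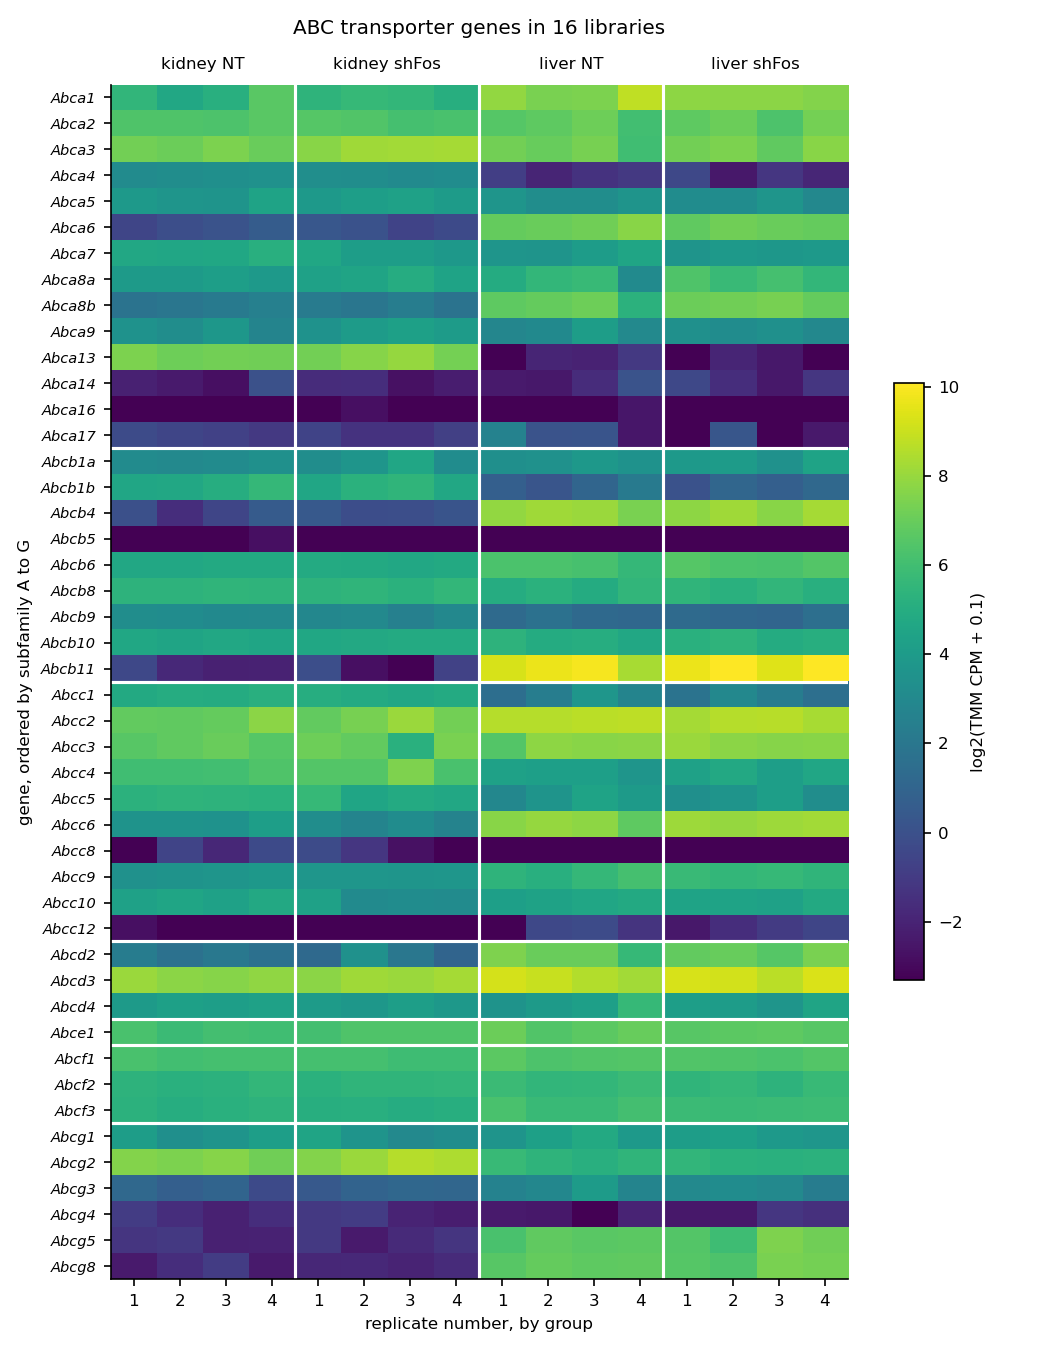
Level of 46 members in each library as log2 of TMM CPM plus 0.1, with genes in rows by subfamily and libraries in columns by group and replicate number. The liver columns are bright for *Abcb11*, *Abcb4*, *Abcg5*, *Abcg8*, *Abca6* and *Abca8b*, where the kidney columns are dark, and the reverse holds for *Abca13*.

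The first comparison asked which members differ between the tissues in NT mice. The kidney against liver contrast of one edgeR quasi-likelihood fit of all 16 libraries tested 42 members among 15421 genes. By Benjamini-Hochberg adjusted p, 32 of the 42 (76.2%) differed, beside 64.7% of all genes tested. Of the 42, 22 (52.4%) were higher in liver (30.2% of all genes) and 10 (23.8%) higher in kidney (34.5% of all genes). The median log2 difference, kidney minus liver, was -0.56 over the members and 0.05 over all genes. At 4-fold or more, 10 members (23.8%) were higher in liver, beside 7.89% of all genes, and 5 (11.9%) higher in kidney, beside 16.1%. All these counts include *Abcb11*, *Abcg5*, *Abcg8*, *Abca4* and *Abca13*. These passed the filter on low counts only through the tissue where they were high, so their calls were largely set in advance.

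The split depends on the scaling between tissues. With library size alone in place of TMM, the difference of the median gene moved by 1.04 log2 units towards kidney, and 22 members (75.2% of all genes) were then higher in kidney and 12 (9.79% of all genes) higher in liver. The direction and call of 20 members were the same under all 28 alternatives run. Of these, 12 were higher in liver (*Abca1*, *Abca6*, *Abca8b*, *Abcb4*, *Abcb6*, *Abcb11*, *Abcc6*, *Abcc9*, *Abcd2*, *Abcg3*, *Abcg5*, *Abcg8*) and 8 higher in kidney (*Abca4*, *Abca13*, *Abcb1b*, *Abcb9*, *Abcc1*, *Abcc4*, *Abcc5*, *Abcg2*). In bulk tissue, fewer cells of a type and less RNA per cell cannot be told apart.

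Among the canalicular and apical exporters, 6 of 9 were higher in liver and 2 higher in kidney. *Abcb11* had 626, 823, 952 and 319 CPM in NT livers 1 to 4 and 0.649, 0.188, 0.138 and 0.140 CPM in NT kidneys, and the difference was -11.21 on the log2 scale (SE 0.74, adjusted p = 1.88e-09 by edgeR). Every liver value lay far above every kidney value, that of replicate 4 included. In NT kidneys 2 to 4, *Abcb11* lay near the CPM that 3 counts make there (0.138 to 0.141). The size of this difference is therefore uncertain. *Abcb4*, the phosphatidylcholine floppase of bile, had 238, 287, 272 and 170 CPM in NT livers and 0.235 to 1.35 CPM in NT kidneys (log2 difference -8.28, SE 0.36, adjusted p = 1.42e-11).

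The half-transporters *Abcg5* and *Abcg8* form the sterol exporter of bile, and their levels ran together. *Abcg5* had 74.2, 111, 100 and 105 CPM in NT livers and *Abcg8* 95.7, 119, 108 and 113 CPM. In NT kidneys they had 0.138 to 0.376 and 0.0927 to 0.415 CPM, and the log2 differences were -8.60 (SE 0.43, adjusted p = 6.59e-11) and -8.97 (SE 0.34, adjusted p = 3.4e-12). Both kidney ranges reached down to 3 counts or fewer, so the sizes of these differences are uncertain too. Exons of the annotated genes overlap by 82 bases on opposite strands, and reads there could not be assigned by strand.

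*Abcc2* was 1.53 log2 units lower in kidney than in liver (SE 0.25, adjusted p = 4.82e-05), a call lost with library size alone (-0.49, adjusted p = 0.0659). *Abcg3*, a rodent relative of *Abcg2*, was also higher in liver (-2.51, SE 0.38, adjusted p = 2.39e-05).

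*Abcg2* went the other way. It had 197, 174, 204 and 144 CPM in NT kidneys and 52.4, 42.2, 34.6 and 43.5 CPM in NT livers (log2 difference 2.06, SE 0.19, adjusted p = 1.1e-07), and every kidney library lay above every liver library. The P-glycoprotein genes, drug exporters that sit side by side on chromosome 5 with *Abcb4*, differed from each other. *Abcb1b* was higher in kidney (24.3 to 48.9 CPM) than in liver (1.06 to 4.57 CPM), with a log2 difference of 3.83 (SE 0.39, adjusted p = 2.92e-07). *Abcb1a* had 7.93 to 10.6 CPM in kidney and 10.3 to 14.2 in liver, and its difference of -0.38 (SE 0.27) had an adjusted p of 0.233 and changed sign with library size alone (0.65, adjusted p = 0.0455). Reads of these paralogs can be split or dropped in counting.

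Of the exporters of the C subfamily other than *Abcc2*, 3 of 6 tested were higher in kidney and 1 in liver. *Abcc6*, whose loss causes ectopic calcification in pseudoxanthoma elasticum, had 209, 250, 228 and 110 CPM in NT livers and 11.3 to 18.2 CPM in NT kidneys (log2 difference -3.91, SE 0.25, adjusted p = 1.24e-09). *Abcc1* (2.18, SE 0.35, adjusted p = 4.29e-05), *Abcc4* (1.96, SE 0.25, adjusted p = 4.08e-06) and *Abcc5* (1.47, SE 0.30, adjusted p = 0.000457) were higher in kidney; these export glutathione conjugates, urate or cyclic nucleotides. *Abcc3* and *Abcc10* had log2 differences of -0.77 (adjusted p = 0.0671) and -0.01 (adjusted p = 0.977), and both changed sign with library size alone. *Abcc9*, the sulfonylurea receptor of smooth-muscle-type potassium channels, was higher in liver (-1.99, SE 0.17, adjusted p = 3.67e-08).

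Among the lipid transporters of A, *Abca13* and *Abca4* were the members with the largest differences towards kidney. *Abca13* had 173, 138, 150 and 143 CPM in NT kidneys and 0, 0.163, 0.146 and 0.375 CPM in NT livers, where 3 counts, the limit that a count of 0 allows, correspond to 0.220 to 0.277 CPM. Its log2 difference was 9.66 (SE 0.37, adjusted p = 3.02e-12). *Abca4*, known from the retina, where it clears retinoids, had 8.85 to 11.1 CPM in NT kidneys and 0.163 to 0.462 in NT livers (log2 difference 4.91, SE 0.35, adjusted p = 4.25e-09). Liver values of both genes lay near or under the limit of 3 counts, so the sizes of their differences are uncertain. *Abca1*, which loads cholesterol on nascent HDL, was higher in liver (-2.30, SE 0.38, adjusted p = 6.08e-05).

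The genes *Abca8b*, *Abca8a*, *Abca9*, *Abca6* and *Abca5* lie in this order within 1 cluster on chromosome 11 (mm10, 109932190 to 110337716), with gaps of 4.77 to 29.8 kb, and did not share a tissue pattern. *Abca6* (-7.29, SE 0.26, adjusted p = 2.25e-12), *Abca8b* (-4.56, SE 0.32, adjusted p = 4.46e-09) and *Abca8a* (-1.08, SE 0.37, adjusted p = 0.0168) were higher in liver; the call of *Abca8a* was lost without liver NT replicate 2, without liver NT replicate 3 and with library size alone. *Abca9* differed by 0.01 (SE 0.28, adjusted p = 0.986). *Abca5* was higher in kidney by 0.51 (SE 0.20, adjusted p = 0.0348), a call lost in 8 of 28 alternatives. *Abca7*, on another chromosome, was also called higher in kidney (0.76, SE 0.21, adjusted p = 0.00461), a call lost in 3 of 28.

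In the organelle half-transporters, *Abcd2*, which imports very long-chain fatty acids into peroxisomes, was 5.04 log2 units higher in liver (SE 0.52, adjusted p = 3.95e-07), with 50.4 to 180 CPM there and 2.99 to 4.82 CPM in kidney. *Abcd3* (-0.94, SE 0.21, adjusted p = 0.000852) was also called higher in liver, but with library size alone it turned to 0.13 (adjusted p = 0.495). The mitochondrial *Abcb10* (-0.41, SE 0.12, adjusted p = 0.00837) was called higher in liver and changed sign with library size alone. *Abcb6* was higher in liver (-1.36, SE 0.13, adjusted p = 1.49e-07), and *Abcb9*, a lysosomal peptide transporter, was higher in kidney (1.82, SE 0.18, adjusted p = 2.84e-07). All 4 soluble ATPases of translation were called higher in liver by 0.33 to 0.79 log2 units, and all 4 changed sign with library size alone. The members without a call were *Abca2*, *Abca3*, *Abca9*, *Abca17*, *Abcb1a*, *Abcb8*, *Abcc3*, *Abcc10*, *Abcd4* and *Abcg1*.

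**Figure D2:**
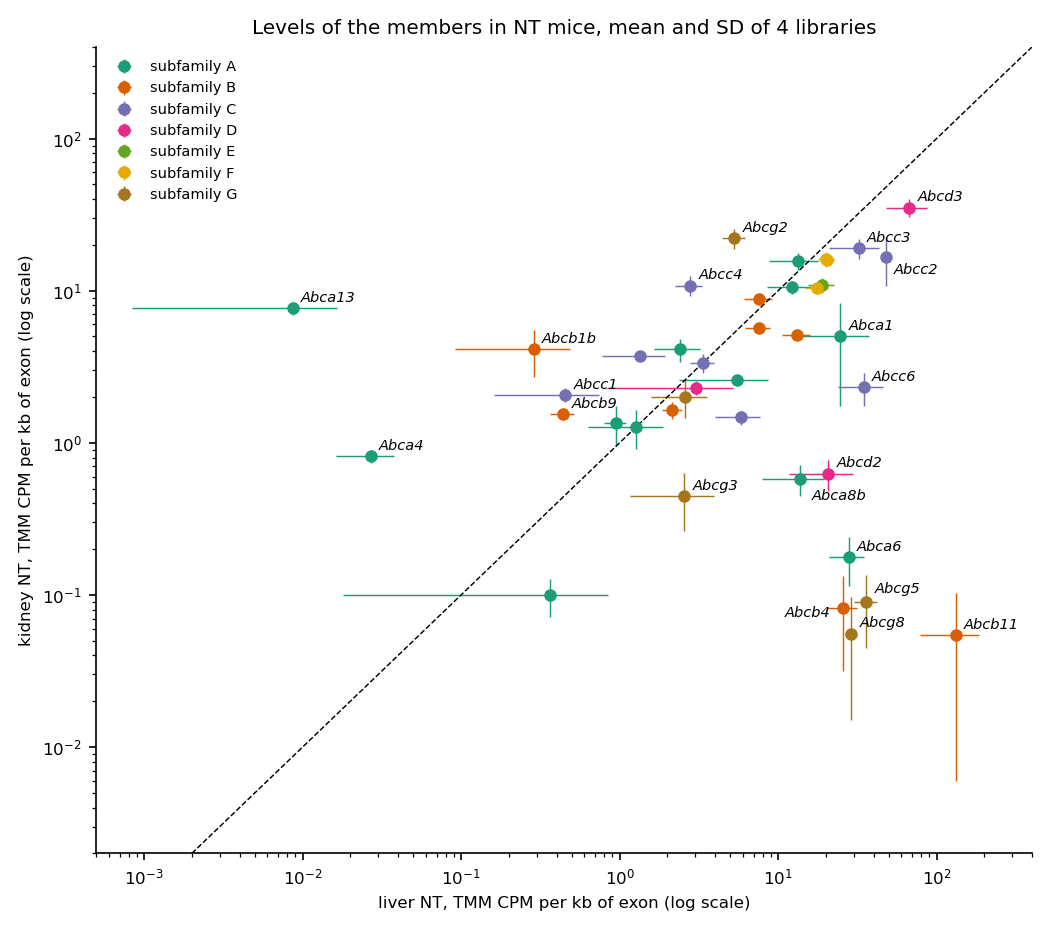
Level of 40 tested members in NT livers (x axis) and NT kidneys (y axis) as TMM CPM per kb of exon, both on log scales; points are means and lines SDs of 4 libraries (a lower line that would reach 0 is cut short), and the dashed line marks equal levels. *Abcb11*, *Abcg5*, *Abcg8*, *Abcb4* and *Abca6* lie far below the line and *Abca13* and *Abca4* far above it.

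Genes that work with these transporters were taken from fixed lists, and their counts stand beside 34.5% of all genes called higher in kidney and 30.2% higher in liver. Of 16 genes of bile acid synthesis and uptake, 13 were higher in liver and 2 in kidney, led by *Slco1a4* (-6.06, SE 0.24) and *Slc27a5* (-10.63, SE 0.45). Of 20 nuclear receptors and factors known to control transporters, 14 were higher in liver and 0 in kidney, led by *Nr5a2* (-7.13, SE 0.22) and *Nr1i2* (-3.13, SE 0.16). Of 13 tested genes of cholesterol efflux and HDL, 11 were higher in liver and 1 in kidney, among them *Scarb1* (-3.61, SE 0.17). Of 9 renal organic anion and cation partners, 7 were higher in kidney and 2 in liver. Of these *Slc22a12* had 528 ± 52.3 CPM in NT kidneys and 0.171 ± 0.154 in NT livers, and *Slc22a6* had 284 ± 53.0 and 0.0231 ± 0.0462 (SD, n = 4). Both liver means lie under the limit of 3 counts, so no fold is given. Of the ABC genes with other symbols, *Cftr*, a chloride channel, was higher in kidney (3.94, SE 0.52, adjusted p = 6.02e-06). Of the channel partners of sulfonylurea receptors, *Kcnj11* had 1.40 ± 0.255 CPM in NT kidneys and no read in NT livers (SD, n = 4).

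Peroxisomal genes (10 of 12, with *Phyh* and *Amacr* in front), the loading complex of MHC class I (7 of 7, *Pdia3* and *Calr*) and the translation partners (6 of 7, *Gspt1* and *Hbs1l*) were mostly called higher in liver, beside the 30.2% of all genes. The translation partners differed by -0.79 to 0.03 log2 units, less than the shift of 1.04 with library size alone, so their direction depends on the scaling. Of 8 genes for heme and iron-sulfur clusters, 4 were higher in liver (*Cpox*, -2.12, SE 0.16) and 2 in kidney.

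The second comparison asked whether shFos changed the members in the kidney. Of 39 members tested among 14892 genes, 0 passed an adjusted p of 0.05 in edgeR, as did 0 of all genes (0%). At an unadjusted p under 0.05 there were 11 members (28.2%), beside 32% of all genes, 7 with a higher mean in shFos (17.1% of all genes) and 4 with a lower mean (14.9%). With library size alone the split was 5 and 7 (10.9% and 20.1% of all genes). With upper-quartile scaling it was 6 and 7 (31.3% of all genes over both directions). DESeq2 called 7 members (17.9%) at an adjusted p under 0.05, beside 17.9% of all genes. Of these 4 were higher (10.1% of all genes), among them *Abca3*, *Abca8a* and *Abcg2*, and 3 were lower (7.79% of all genes), *Abca7*, *Abcc6* and *Abcc10*. Groups of libraries did not overlap for 6 members (15.4%), beside 17.2% of all genes, with *Abca3* and *Abca8a* higher (9.9% of all genes) and 4 lower (7.29%), *Abcb9*, *Abcc6* and *Abcc10* among them. Over both directions together the share of members called was 28.2% against 32% of all genes at an unadjusted p in edgeR and 17.9% against 17.9% in DESeq2. The median log2 change was 0.04 over the members and 0.00 over all genes.

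Among the lipid transporters, *Abca3*, known for loading surfactant lipid into lamellar bodies of the lung, had the smallest p of all members. It had 149, 136, 174 and 132 CPM in NT kidneys and 210, 289, 296 and 310 in shFos kidneys, without overlap (log2 change 0.91, SE 0.15, unadjusted p = 0.000177, adjusted p = 0.065 by edgeR and 5.79e-06 by DESeq2). It overlaps a noncoding gene on the other strand by 914 exon bases. That gene is also in the count tables, and reads in the overlap could not be assigned by strand.

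*Abca8a* had 15.3 to 18.1 CPM in NT and 20 to 31.0 CPM in shFos kidneys, also without overlap (0.56, SE 0.15, adjusted p = 0.0652). Its neighbour *Abca9* had 6.63 to 13.5 and 11.5 to 19.5 CPM, with overlap (0.65, SE 0.24, adjusted p = 0.104). *Abca7*, a phospholipid transporter, had 25.8, 24.8, 25.7 and 34.7 CPM in NT and 25.4, 17.3, 17.7 and 14.2 CPM in shFos kidneys (-0.57, SE 0.17, adjusted p = 0.0766), with shFos replicate 1 at the NT level.

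Among the exporters, *Abcg2* had 197, 174, 204 and 144 CPM in NT and 197, 273, 384 and 344 CPM in shFos kidneys. Replicates 2 to 4 of shFos lay above all NT libraries and replicate 1 among them (log2 change 0.74, SE 0.22, adjusted p = 0.0719 by edgeR and 0.0117 by DESeq2). *Abcc4*, which exports urate and cyclic nucleotides, had 62.3 to 84.8 CPM in NT and 90.3, 90.8, 183 and 75.4 CPM in shFos kidneys (0.68, SE 0.27, adjusted p = 0.121). Without shFos replicate 3 its change was 0.30.

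*Abcc6* had 11.7, 11.8, 11.3 and 18.2 CPM in NT and 9.42, 6.56, 8.96 and 6.32 CPM in shFos kidneys, without overlap (-0.75, SE 0.20, adjusted p = 0.065 by edgeR and 0.0108 by DESeq2). *Abcc10*, a drug exporter, had 20.2, 23.9, 20.5 and 27.3 CPM in NT and 20, 8.51, 9.20 and 8.79 CPM in shFos kidneys (-0.98, SE 0.27, adjusted p = 0.0672). Here too replicate 1 of shFos lay next to the NT libraries and the other shFos libraries far below them.

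Among the soluble ATPases, *Abce1*, which splits ribosomes after termination, had 57.4 to 75.0 CPM in NT and 67.9, 84.2, 84.6 and 84.8 CPM in shFos kidneys (0.30, SE 0.11, adjusted p = 0.116).

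**Figure D3:**
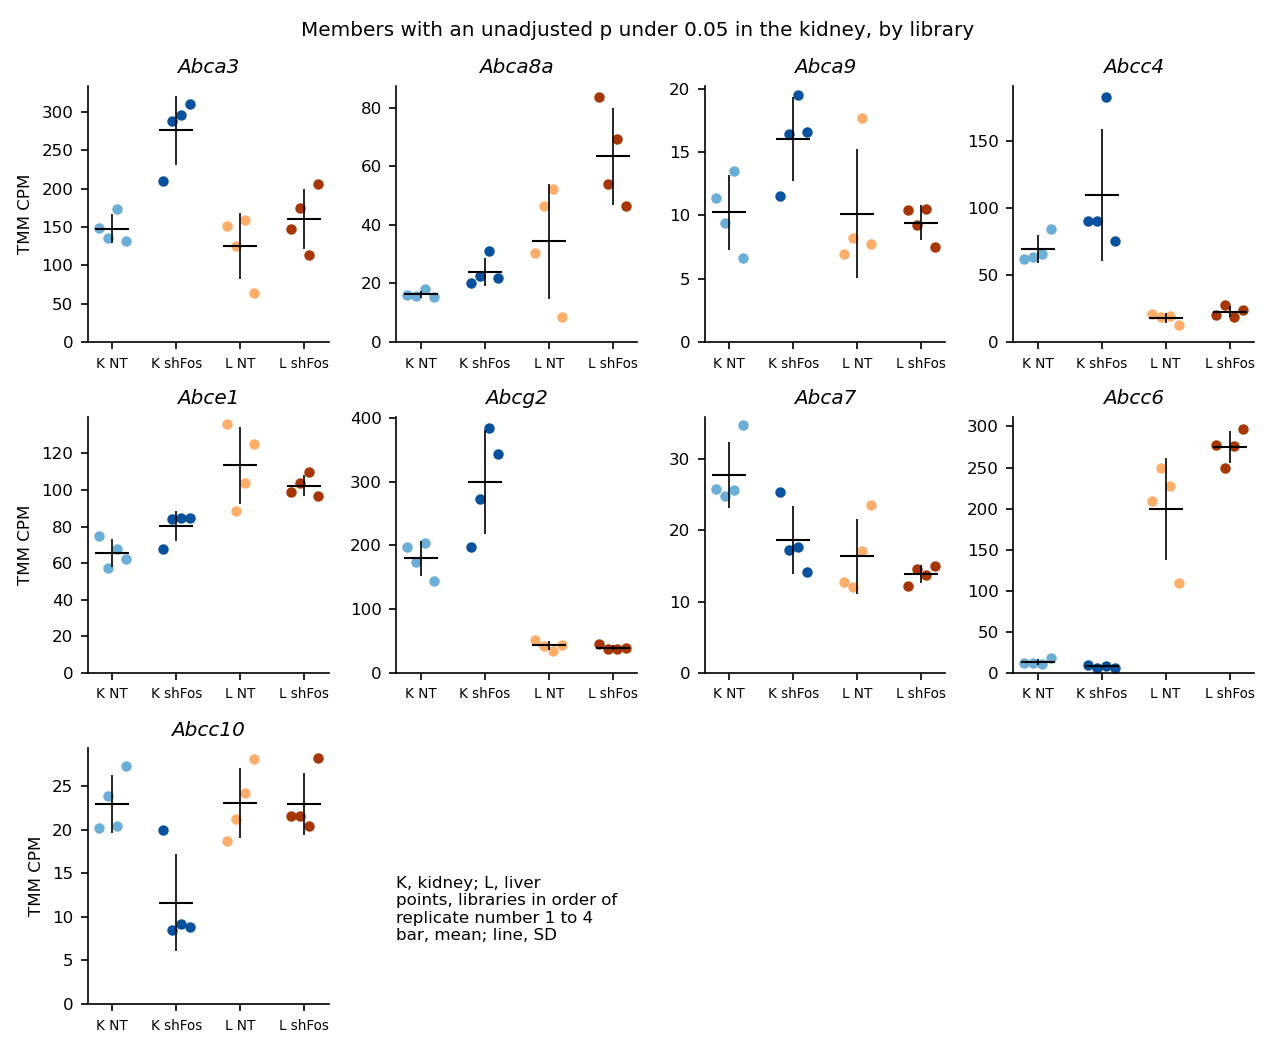
TMM CPM in each library (points, in order of replicate number) with mean and SD for 9 members with an unadjusted p under 0.05 in the kidney, for kidney (K) and liver (L) in NT and shFos mice. In *Abcg2*, *Abca7*, *Abce1* and *Abcc10* the first shFos kidney lies within or next to the NT kidneys and apart from the other shFos kidneys.

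One library weighed on the call. Without kidney shFos replicate 1, 10 members passed an adjusted p of 0.05 in edgeR (27.8% of all genes), among them *Abca3*, *Abca8a*, *Abca9*, *Abce1* and *Abcg2* with higher and *Abca7*, *Abcc5*, *Abcc6* and *Abcc10* with lower means. At an unadjusted p there were then 17, beside 40.8% of all genes. In the fit of all 16 libraries 4 passed (6.4% of all genes), 3 of them higher (3.83%), with *Abca3* and *Abcg2*, and *Abcc10* lower (2.57%). With any of the other 7 kidney libraries left out, 0 passed.

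The kidney values went with base composition. GC content was taken from the longest transcript of each gene. Of 12 members under 45% GC, 10 had a higher mean in shFos (83.3%, beside 69.2% of all such genes). Of 8 members over 55% GC, 7 had a lower mean (87.5%, beside 72.8%). Across the 39 members Pearson's r of the log2 change with GC content was -0.56 and Spearman's rho -0.57, beside -0.31 and -0.35 across 14800 genes; genes of one set of libraries are not independent points. *Abcc6*, *Abca7* and *Abcc10* had 57.5% to 59.0% GC and *Abcg2*, *Abce1* and *Abca8a* 39.2% to 43.4%, while *Abca3* (54.8%) went against the trend.

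With a correction for GC content and length, r across the members was -0.24, and 9 members had an unadjusted p under 0.05, beside 28.4% of all genes. *Abca3* then had a log2 change of 0.99 (unadjusted p = 0.000212 by edgeR), *Abcc10* one of -0.83, *Abcc6* one of -0.54 and *Abcg2* one of 0.49. *Abce1* stood at 0.10 (unadjusted p = 0.26 by edgeR). *Abca9* (unadjusted p = 0.0594 by edgeR) also missed the threshold, and *Abcb10* and *Abcd4* passed it. The part of base composition in the kidney values was otherwise not tested.

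**Figure D4:**
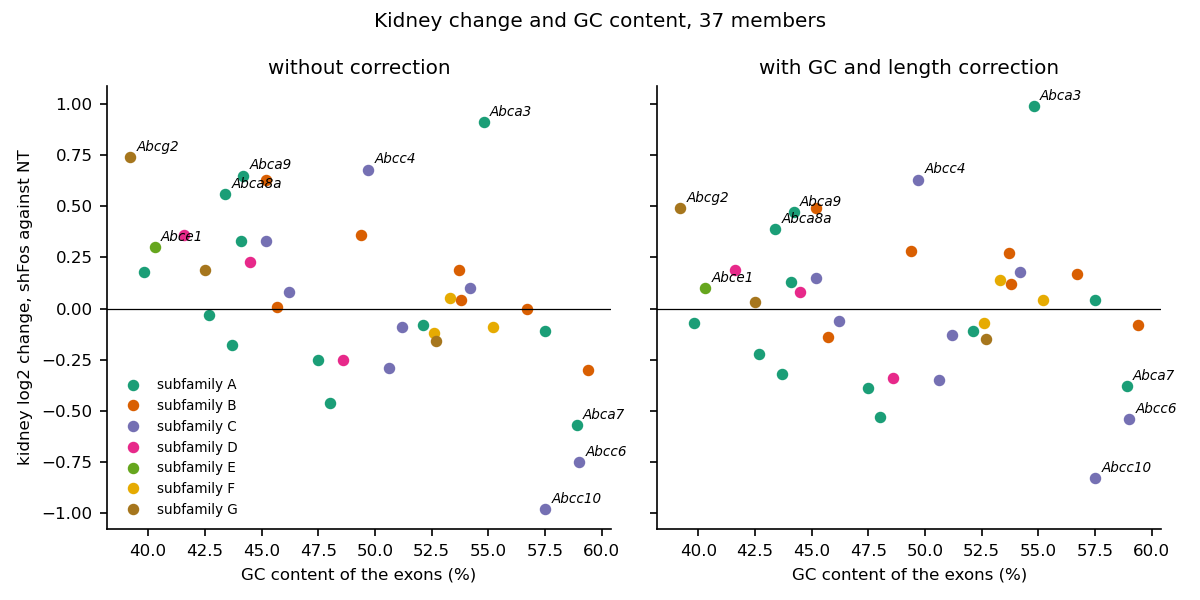
Kidney log2 change of 37 tested members (y axis) by GC content in percent (x axis), coloured by subfamily. Values are without correction (left) and with the correction for GC content and length (right). The GC content is that of the longest transcript, although the axis names the exons. The points slope from upper left to lower right on the left, and *Abca3* stays high in both panels.

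Markers of kidney cell types are given beside the 17.1% of all genes with a higher and the 14.9% with a lower mean at an unadjusted p under 0.05. At that threshold 4 of 4 podocyte markers were higher in shFos, with sums of 203 to 292 CPM in NT and 256 to 513 CPM in shFos kidneys, as were 4 of 5 endothelial markers (192 to 241 and 256 to 316 CPM), 3 of 6 proximal tubule markers (3750 to 11000 and 7600 to 25200 CPM) and 2 of 4 smooth muscle markers (121 to 163 and 142 to 211 CPM). In shFos replicate 1 the podocyte sum was 256 CPM and in the other shFos kidneys 453 to 513. Lower were 1 of 2 markers of distal tubule, 1 of 4 of collecting duct, 1 of 4 of cholangiocytes, 2 of 5 of B and plasma cells and 2 of 6 of hepatocytes, of which 1 was higher, as was 1 of 7 of fibroblasts and pericytes. None of these markers passed an adjusted p of 0.05 in edgeR, and their part in the values of the members was not tested.

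The other well-known transporters tested had no unadjusted p under 0.05 in the kidney. *Abcb1a* had 7.93 to 10.6 CPM in NT and 9.42, 12.6, 24.0 and 9.21 CPM in shFos kidneys (log2 change 0.63, SE 0.30, adjusted p = 0.185), and *Abcc2* had 112 to 120 CPM in 3 NT libraries, 216 in NT replicate 4 and 116 to 271 in shFos (0.33, SE 0.29, adjusted p = 0.467). Both were highest in shFos replicate 3, the library in which *Abcc4* was highest and *Abcc3* lowest (36.3 CPM against 116 to 169 in the other shFos kidneys). *Abcc3* (0.10, SE 0.37), *Abcb1b* (0.01, SE 0.26), *Abcb4* (0.36, SE 0.44), *Abcd3* (0.23, SE 0.14), *Abcg1* (-0.16, SE 0.32) and *Abca1* (-0.25, SE 0.36) had adjusted p-values from 0.29 to 0.976. *Abca1*, with 102 CPM in NT replicate 4 and 26.1 to 45 in the other NT kidneys, turned to 0.28 without that library.

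The lists of partners differed in how many genes had an unadjusted p under 0.05 by edgeR in the kidney. Of 18 nuclear receptors and factors tested, 4 had an unadjusted p under 0.05, 2 in each direction, with *Nr1h2* (-0.39, SE 0.10, adjusted p = 0.065) and *Ppard* (1.15, SE 0.32, adjusted p = 0.0683) in front. Of 12 genes of bile acid synthesis and uptake, 2 did, *Slc10a2* (0.59, SE 0.15) and *Fgfr4* (-0.34, SE 0.10), and of 9 organic anion and cation partners 1 did, *Slco4c1* (1.77, SE 0.39, adjusted p = 0.065). Cholesterol efflux had 0 of 13, with *Lcat* (-1.24, SE 0.60) and *Apoe* (-0.70, SE 0.44) in front. Of 8 genes for heme and iron-sulfur clusters 6 did, 3 in each direction, led by *Nfs1* (0.43, SE 0.10) and *Cpox* (0.65, SE 0.17). For the translation partners it was 3 of 7, all higher (*Gspt1*, 0.49, SE 0.10), for the loading complex 3 of 7 (*Canx*, 0.45, SE 0.13), for peroxisomal genes 4 of 12 (*Crot*, 0.42, SE 0.14), for channel partners 1 of 2 (*Kcnj11*, -0.59, SE 0.26), and *Cftr* had a change of 0.85 (SE 0.23, adjusted p = 0.0658). These shares stand beside the 32% of all genes.

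The third comparison was the same in the liver, where AAV8 given by vein is known to transduce hepatocytes. Of 40 members tested among 13144 genes, 0 passed an adjusted p of 0.05 in edgeR, as did 0 of all genes, and 0 in DESeq2, which called 36 genes (0.274%). At an unadjusted p under 0.05 there were 0 members in edgeR, beside 6.82% of all genes (3.6% higher and 3.23% lower), and 1 in DESeq2, *Abca17* with a lower mean, beside 7.7% (3.84% higher and 3.86% lower). The liver groups did not overlap for 0 members, beside 4.56% of all genes. The median log2 change was -0.05 over the members and -0.01 over all genes. A p that misses the threshold does not show that the levels were alike, and the standard errors below give the sizes that could have been missed.

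*Abcb11* had 626, 823, 952 and 319 CPM in NT livers and 842, 1060, 704 and 1090 CPM in shFos livers, with overlap (log2 change 0.43, SE 0.31, adjusted p = 0.767). Without NT replicate 4, the lowest library, its change was 0.18. *Abcb4* (170 to 287 and 208 to 306 CPM; 0.07, SE 0.20) and *Abcc2* (388 to 439 and 314 to 395 CPM; -0.20, SE 0.13) also overlapped.

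*Abcg5* had 90.9, 60.1, 179 and 143 CPM in shFos livers and *Abcg8* 94.2, 82.5, 168 and 155 CPM, so both were higher in replicates 3 and 4 than in any NT liver and lower than in any NT liver in replicate 2 (0.27, SE 0.31, and 0.19, SE 0.23). *Abcg2* had 34.6 to 52.4 and 36.8 to 44.7 CPM (-0.13, SE 0.14). *Abcb1a* was at 10.3 to 14.2 and 11 to 21.7 CPM (0.41, SE 0.21, adjusted p = 0.727), and *Abcb1b* at 1.06 to 4.57 and 0.957 to 2.23 CPM (-0.45, SE 0.47), a change that turned to 0.11 without NT replicate 4. The sign of the small changes of *Abcb4* (-0.08 without NT replicate 4) and *Abcg5* (-0.02 without shFos replicate 3) also rested on 1 library.

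*Abca1* had 238, 165, 176 and 446 CPM in NT and 192 to 221 CPM in shFos livers (-0.28, SE 0.29), and without NT replicate 4 its change was 0.11. *Abcg1*, its partner in loading HDL, had changes of -0.22 (SE 0.26) with 12.2 to 28.5 and 13.3 to 19.7 CPM. *Abcc3* had 89.0 CPM in NT replicate 1 and 209 to 224 in the other NT livers, beside 198 to 269 in shFos (0.27, SE 0.27). *Abcc4* (0.34, SE 0.18), *Abcd3* (0.32, SE 0.23) and *Abcc6* (0.45, SE 0.23) had adjusted p-values from 0.728 to 0.766.

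Of the other members the liver changes lay between -0.56 (*Abcc1*) and 0.87 (*Abca8a*), apart from *Abca17*. *Abca8a* had 30.5, 46.5, 52.2 and 8.47 CPM in NT and 46.3 to 83.7 CPM in shFos livers (SE 0.46, adjusted p = 0.728). *Abca17* had 6.00, 0.977, 1.02 and 0.0749 CPM in NT and 0, 1.11, 0 and 0.0856 CPM in shFos livers (-2.68, SE 1.30, adjusted p = 0.727), with values under the limit of 3 counts in 4 of 8 libraries.

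Of the partners in liver, 2 of 20 nuclear receptors and factors had an unadjusted p under 0.05. *Nr1i2*, the xenobiotic receptor PXR, had means of 97.2 ± 14.9 CPM in NT and 149 ± 12.8 CPM in shFos livers (SD, n = 4; log2 change 0.60, SE 0.14, adjusted p = 0.685 by edgeR and 0.0487 by DESeq2), and *Nr1d1*, a clock repressor, had 56.3 ± 42.5 and 9.73 ± 8.25 CPM (-2.54, SE 0.84, adjusted p = 0.702). In the lists of bile acids (15 tested), cholesterol efflux (13), organic anion and cation partners (4), channel partners (1), heme and iron-sulfur (8), peroxisomes (12), translation (7), the MHC loading complex (7) and the other ABC genes (2), 0 genes did.

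Among liver cell markers, at an unadjusted p under 0.05, 2 of 6 hepatocyte, 2 of 7 stellate cell and 2 of 3 tested smooth muscle markers were higher in shFos, as were 1 of 5 endothelial, 1 of 5 B and plasma cell and 1 of 2 tested proximal tubule markers, and 1 of 5 tested neutrophil markers was lower, while 0 of 7 Kupffer cell markers passed. The Kupffer cell sum was 272 to 1670 CPM in NT and 347 to 660 CPM in shFos livers. Their part in the liver values was not tested.

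**Figure D5:**
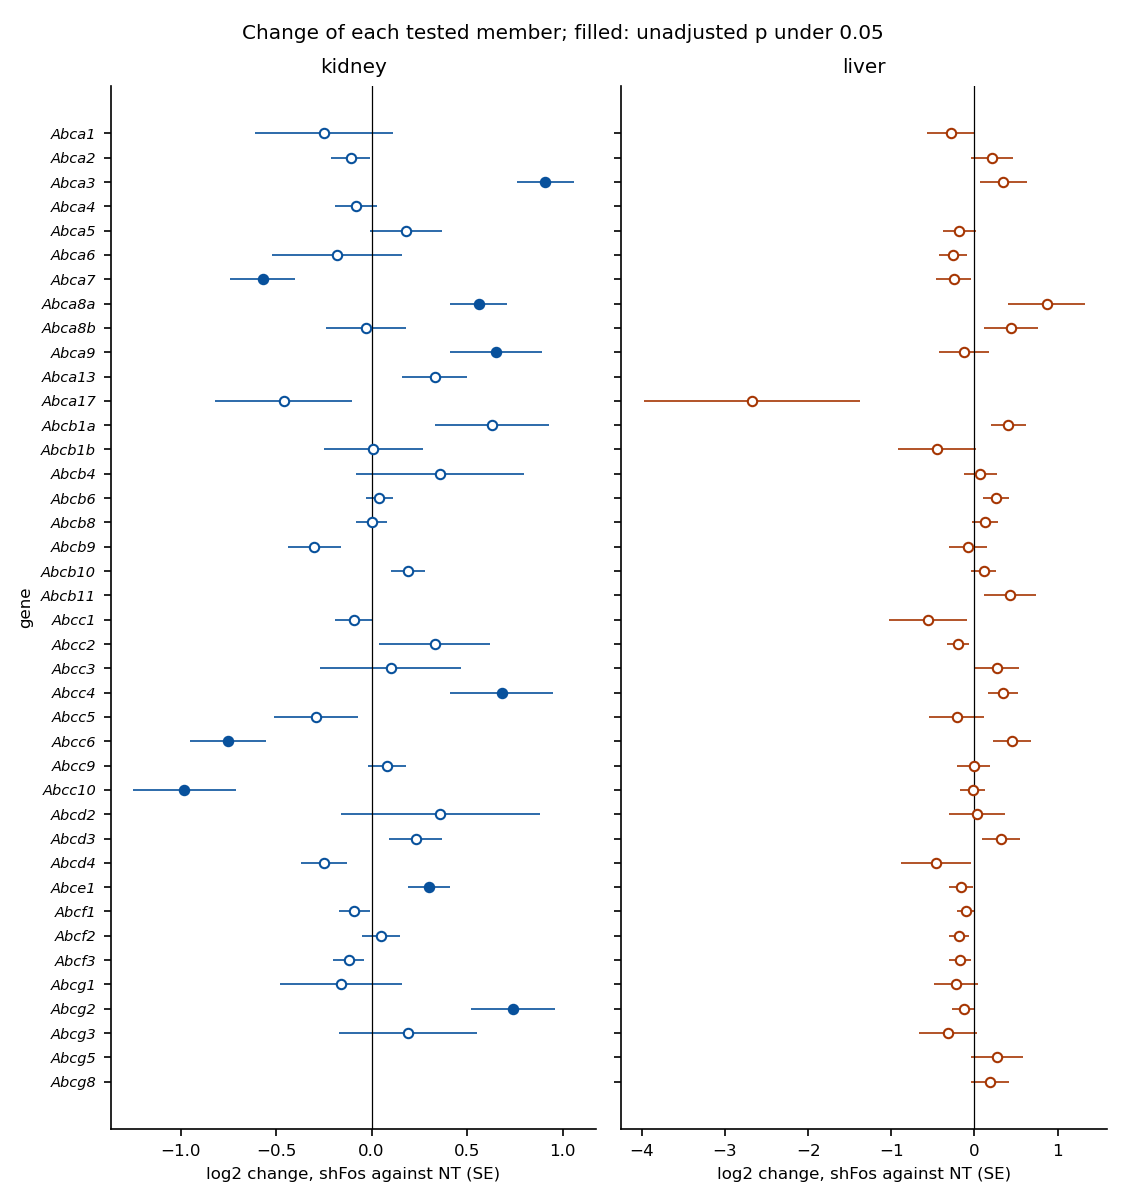
Log2 change of shFos against NT with SE for tested members in kidney (left) and liver (right), on x scales that differ; filled points have an unadjusted p under 0.05 in edgeR. The kidney panel has 9 filled points and the liver panel none.

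Whether the change differed between the tissues was tested as an interaction in the fit of all 16 libraries. Of 42 members, 0 passed an adjusted p of 0.05 in edgeR, as did 0 of all genes, and 5 (11.9%) had an unadjusted p under 0.05, beside 16.1% of all genes. The kidney minus liver difference in change was -1.22 for *Abcc6* (SE 0.32, unadjusted p = 0.00151, adjusted p = 0.18 by edgeR), which was the only member that DESeq2 called (1.83% of all genes). It was 0.86 for *Abcg2* (SE 0.26), -0.97 for *Abcc10* (SE 0.34) and 0.44 for *Abce1* (SE 0.18), with adjusted p-values by edgeR from 0.188 to 0.261. Without kidney shFos replicate 1, 4 members, *Abcc6*, *Abcg2* and *Abcc10* among them, passed an adjusted p of 0.05 (7.88% of all genes).

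The members removed by the filter on low counts were compared with a permutation test that was exact and two-sided and whose smallest possible p is 0.0286. *Abca14* (1 to 19 counts per library in kidney, 1 to 13 in liver), *Abca16* (0 to 1), *Abcb5* (0 to 1 in kidney, 0 in liver), *Abcc8* (0 to 16 in kidney, 0 in liver), *Abcc12* (0 to 1 in kidney, 0 to 10 in liver) and *Abcg4* (2 to 9 in kidney, 0 to 4 in liver) were removed in both tissues. *Abcb11*, *Abcg5* and *Abcg8* were removed in kidney and *Abca4* and *Abca13* in liver. Their exact p-values for shFos against NT, 17 in all, ranged from 0.286 to 1, and a difference was not detectable at this depth. *Abca16* and *Abcb5* in both tissues, *Abcc8* in liver and *Abcc12* in kidney had at most 1 read over all libraries of the tissue. For these the outcome of the test was fixed in advance, and the smallest possible p could not be reached.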

How the data were processed

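The authors trimmed reads with Trimmomatic 0.39, aligned them to mm10 with HISAT2 2.2.1 and counted reads per gene with HTSeq 0.12.4 without regard to strand, per the study's methods and the submitters' processing notes. The deposited tables hold raw counts for 24984 genes; 5 summary lines were left out (no gene 13.42% to 26.69% of reads, ambiguous 1.84% to 2.64%). The version of their annotation is not given in the sources used here. GENCODE M21 supplied positions and lengths for 98.2% of symbols and all members.

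Tests on counts used edgeR 4.0.16 under R 4.3.3 (low counts removed by filterByExpr, TMM, robust dispersion, quasi-likelihood test at default settings, Benjamini-Hochberg adjustment, threshold 0.05), each tissue alone and, for tissue and interaction, all 16 libraries together. The SE is the log2 change over the square root of F. DESeq2 1.42.0 was the main alternative. The GC correction used a lowess trend (span 0.3) per library. Scripts were tested on simulated data. No library pair agreed within sampling noise (smallest chi-square per degree of freedom 7.5). A count of 0 allows up to 3 counts, 0.138 to 0.277 CPM, for counting error only.

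Same-numbered kidney and liver NT libraries deviated together (correlations 0.115 to 0.326), while those with different numbers gave -0.341 to 0.174. The labels do not state a pairing, and these values do not settle whether the numbers pair those libraries. Same-numbered kidney and liver shFos libraries gave 0.039 to 0.147, and those with different numbers gave -0.140 to 0.066. The shFos values do not settle a pairing either.

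Members, lists and the naming rule were chosen with earlier results of these data known. Named were members with an unadjusted p under 0.05, the most abundant of each subfamily, the 8 largest tissue differences each way, interaction members, filtered members, 13 well-known transporters, and up to 2 genes per list; others were named after their values were seen. The values of some genes are not reported here; they remain in the counts of members and lists.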

Additional observations from a re-analysis of the deposited data

Results flagged for a closer look

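In groups of 4 libraries, 15 of 150 groups of a member held a library whose gap to the nearest other, relative to the whole range, exceeded Dixon's 95% critical value; chance gives about 1 in 20, or 7.5.

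Kidney NT replicate 4 was high in 5 members. Its values were 101 CPM for *Abca2* (others 81.2 to 84.4), 34.7 for *Abca7* (24.8 to 25.8), 216 for *Abcc2* (112 to 120), 84.8 for *Abcc4* (62.3 to 65.9) and 18.2 for *Abcc6* (11.3 to 11.8). Kidney shFos replicate 1 was high for *Abcc10* at 20 CPM (8.51 to 9.20) and low for *Abce1* at 67.9 CPM (84.2 to 84.8). Kidney shFos replicate 3 was high for *Abcc4* at 183 CPM (75.4 to 90.8).

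In NT livers, replicate 3 was high for *Abca9* at 17.7 CPM (6.92 to 8.22) and *Abcg3* at 16.5 CPM (6.09 to 7.33). Replicate 1 was high for *Abca17* at 6.00 CPM (0.0749 to 1.02) and low for *Abcc3* at 89.0 CPM (209 to 224). In shFos livers, replicate 4 was low for *Abca1* at 192 CPM (218 to 221) and high for *Abcc10* at 28.3 CPM (20.5 to 21.6), and replicate 2 was high for *Abca17* at 1.11 CPM (0 to 0.0856).

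The change under shFos differed between kidney and liver, at an unadjusted interaction p under 0.05 by edgeR, by -1.22 log2 units for *Abcc6*, 0.86 for *Abcg2*, -0.97 for *Abcc10* and 0.44 for *Abce1*; none passed the adjustment over all genes.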

How the results depend on the processing

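Percentages in brackets are shares of all genes tested. Of members in the kidney, 0 passed an adjusted p of 0.05 by edgeR (0%), 7 by DESeq2 (17.9%) and 4 in the fit of all 16 libraries (6.4%). With 1 library left out it was 0 to 10 (10 without shFos replicate 1, 27.8%). At an unadjusted p under 0.05 there were 11 (32%), and 7 with the replicate block and the GC and length correction together (22.3%). With 1 library left out there were 7 (without NT replicate 2, 23.4%) to 17 (without shFos replicate 1, 40.8%). In liver 0 members had an unadjusted p under 0.05 (6.82%). By DESeq2 1 did (7.7%), in the fit of all 16 libraries 2 (10.4%), and with the replicate block 1, with and without the GC and length correction (4.64%). With 1 library left out there were 0 to 2. There were 2 without NT replicate 3 (7.91%) or 4 (6.67%), and 1 without shFos replicate 2 (5.98%) or 3 (4.51%). The adjusted count there was 0 in every fit. For the interaction 5 members (16.1%) became 3 with the GC and length correction, without (14.5%) and with the replicate block (13.7%). With 1 library left out there were 4 to 7 (12.6% to 23.7%). The tissue count of 32 (64.7%) ranged from 30 to 34 with 1 library left out. It was 32 with the replicate block within treatment (66.3%) and 31 with the number alone. With the replicate block the kidney's unadjusted count was 8 (25.6%). Within a tissue the NT and shFos numbers did not pair (correlations -0.238 to 0.113). With library size alone, *Abcb1a* (0.65) and *Abcd3* (0.13) reversed between tissues, as did the small shFos differences in kidney CPM of *Abcg4* (-0.00925) and *Abcg5* (-0.0192). The 8 largest tissue differences each way and those of the 13 well-known transporters otherwise kept their side of the threshold in 607 fits. They passed it in 6 and lost it in 1. Calls of other members were lost more often, among them *Abca5* (8 of 28 alternatives), *Abcf2* (4), *Abca7* (3) and *Abca8a* (3). Called or not, 13 members changed sign with library size alone. Named kidney changes kept their side in 301 fits, lost it in 34 and passed it in 7; the uncalled changes of *Abca1*, *Abcb1b*, *Abcc3* and *Abcg1* changed sign in some. The cause of these shifts was not tested. Library size, GC correction, leaving out libraries and the fits named above were the alternatives. Those on library size, the block within treatment and the joint removal of NT replicate 4 from both tissues were chosen after seeing the data. The order of members by level per kilobase also depended on the gene length used. Depth limits what can be said of members under about 3 counts per library, and 4 libraries per group limit what small changes could be called.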
